A study of Mus musculus with 16 samples.

Results

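Gata2 and 9 expressed genes that lie close to it on mouse chromosome 6 were followed across 16 bone marrow RNA sequencing libraries. The 10 genes, of 45706 gene IDs in the count table, were Isy1, Cnbp, Copg1, Rab7, Rpn1, Gata2, Eefsec, Ruvbl1, Sec61a1 and Mgll in chromosome order. They were chosen by position and by being expressed, after Gata2 was known to differ between the labels in these libraries, so their expression as such, and the label difference of Gata2, are descriptions here. All 10 passed the filter on low counts in every comparison.

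The series concerns Gata2 haploinsufficiency in mouse blood formation, with sorted LSK cells given in low numbers to WT hosts after lethal irradiation. At Day0 there were 2 WT libraries and 3 labelled Gata2, and at Day2 3 WT and 2 labelled Gata2, all from LSK cells, the marrow fraction without lineage markers and with Sca-1 and Kit on its surface, where blood stem cells are found. At Week2 each label had 3 libraries, from bone marrow cells labelled CD45.2, an allele of the leukocyte surface protein CD45 that is widely used to tell donor from host cells. The labels give no strain, age, sex or allele, no treatment that sets Day2 apart from Day0, and no word on whether replicates are different animals, so p-values measure the spread between libraries, which may be technical.

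GATA2 is a zinc finger transcription factor that binds GATA motifs and is needed for the formation and upkeep of blood stem cells. Its gene is controlled by distant enhancers, and in a class of human myeloid leukaemia a distal GATA2 enhancer near RPN1 is moved to the MECOM gene. The neighbours are mostly housekeeping genes, and no pathway is shared by all of them. Some serve protein entry into the endoplasmic reticulum and its glycosylation (Sec61a1, Rpn1) or vesicle traffic (Copg1, Rab7). The others serve translation of selenoproteins (Eefsec), chromatin remodelling (Ruvbl1), splicing (Isy1), RNA binding (Cnbp) and lipid breakdown (Mgll). Whether the difference in Gata2 between the labels was also seen in the genes around it was the question put to the data.

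Positions are from GENCODE M21 on GRCm38 (mm10). Gata2 (ENSMUSG00000015053) lies at chr6:88193891-88207032 on the plus strand. Before it lie Isy1 (chr6:87814269-87838798), Cnbp (chr6:87842615-87851106), Copg1 (chr6:87887814-87913595), Rab7 (chr6:87999106-88045270) and Rpn1 (chr6:88084482-88105304). After it lie Eefsec (chr6:88257334-88446539), Ruvbl1 (chr6:88465409-88497572), Sec61a1 (chr6:88503579-88518905) and Mgll (chr6:88724412-88828360). The gap to Gata2 is smallest for Eefsec, 50.3 kb, and Rpn1, 88.6 kb, then 148.6 kb for Rab7, 258.4 kb for Ruvbl1, 280.3 kb for Copg1, 296.5 kb for Sec61a1, 342.8 kb for Cnbp, 355.1 kb for Isy1 and 517.4 kb for Mgll. Copg1, Rpn1, Gata2, Ruvbl1 and Mgll are on the plus strand and the others on the minus strand. Annotated genes on the opposite strand overlap Rab7 (Gm5577), Mgll (Gm26588), Eefsec (Gm25178), Copg1 (Gm26636) and Rpn1 (Mir6376); since the counting's use of strand is not given, reads of such a pair cannot be told apart. In LSK libraries Gm5577 reached 2.68 CPM (the counts-per-million scale), far below Rab7, and Gm26588 reached 1.07 CPM beside Mgll, which is itself at a few CPM. The others reached at most 0.255 CPM.

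The 250 bases upstream of the start were read from RefSeq (GRCm38.p6) for both Gata2 starts, for the nearest member on each side and for the first of the Rab7 starts, which holds the GATA motif found among the members, so that the letters before Gata2 can be set beside those of its neighbours. Capitals mark a GATA motif (the letters GATA with A or T before them and A or G after them, on either strand) or a CCAAT box (the letters CCAAT on either strand); in these windows the motifs do not overlap.
Rab7 (chr6:88045271-88045520, minus strand): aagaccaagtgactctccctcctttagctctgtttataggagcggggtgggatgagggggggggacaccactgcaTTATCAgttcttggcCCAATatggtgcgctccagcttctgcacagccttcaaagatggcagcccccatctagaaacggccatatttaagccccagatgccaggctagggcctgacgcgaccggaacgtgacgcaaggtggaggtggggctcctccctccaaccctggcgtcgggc
Rpn1 (chr6:88084223-88084472, plus strand): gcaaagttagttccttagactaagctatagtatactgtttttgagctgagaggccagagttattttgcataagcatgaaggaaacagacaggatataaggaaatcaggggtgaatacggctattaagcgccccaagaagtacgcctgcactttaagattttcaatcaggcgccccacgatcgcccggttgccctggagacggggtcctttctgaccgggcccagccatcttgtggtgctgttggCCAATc
Gata2, first start (chr6:88193641-88193890, plus strand): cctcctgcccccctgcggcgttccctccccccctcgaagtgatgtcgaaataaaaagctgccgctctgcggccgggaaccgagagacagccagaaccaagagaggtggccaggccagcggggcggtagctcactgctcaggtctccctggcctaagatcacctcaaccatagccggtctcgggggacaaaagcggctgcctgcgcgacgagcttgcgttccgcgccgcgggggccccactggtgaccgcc
Gata2, start within the gene (chr6:88198414-88198663, plus strand): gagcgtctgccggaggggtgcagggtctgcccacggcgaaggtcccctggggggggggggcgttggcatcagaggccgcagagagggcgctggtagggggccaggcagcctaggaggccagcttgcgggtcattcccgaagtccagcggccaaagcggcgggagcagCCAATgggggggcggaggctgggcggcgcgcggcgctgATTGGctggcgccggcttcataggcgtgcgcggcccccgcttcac
Eefsec (chr6:88446540-88446789, minus strand): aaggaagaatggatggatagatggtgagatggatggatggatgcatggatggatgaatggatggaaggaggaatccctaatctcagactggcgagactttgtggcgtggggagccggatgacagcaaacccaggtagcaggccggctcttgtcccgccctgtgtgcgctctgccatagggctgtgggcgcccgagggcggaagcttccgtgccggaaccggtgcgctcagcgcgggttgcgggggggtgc

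The window before Rab7 held a GATA motif, read on the other strand, and a CCAAT box, and that before Rpn1 held a CCAAT box close to the start. The window before the Gata2 start within the gene held 2 CCAAT boxes, while no such letters were found in that before the first Gata2 start or in that of Eefsec. RefSeq windows were matched for 9 of the 10 members and gave 12 windows in all, since some genes have several starts: 1 of 12 held a GATA motif and 5 of 12 (those of Rpn1, Ruvbl1 and Cnbp and 1 each of Gata2 and Rab7) a CCAAT box. Of all 32851 windows of the same length, 26.5% held the GATA motif and 33.8% the CCAAT box. In the windows printed above, G and C made up 49.2% before Rpn1, 59.2% before Rab7 and 61.6% before Eefsec. Before the Gata2 starts they made up 67.2% and 74%. Over the 12 windows this share ran from 42.4% before Ruvbl1 to 74.8% before 1 of the Mgll starts. A match is a run of letters, not a bound site.

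The libraries held 19618830 to 68305582 counts in LSK cells and 176933583 to 320717267 at Week2. Levels are given as CPM with TMM scaling, over the 10 LSK libraries and, separately, over the 6 Week2 libraries, so levels of the members are not compared across these sets. Day0_WT replicate 1 stands apart from the other Day0_WT library (r = 0.88 across genes, where other pairs within LSK groups had 0.99), and values with and without it are given. The 7 LSK and stem cell markers used here (Kit, Ly6a, Cd34, Flt3, Procr, Hlf and Mecom) summed to 1280 to 2305 CPM in LSK libraries and to 60.0 to 168 CPM at Week2, where 6 mature neutrophil genes summed to 16911 to 85216 CPM. Ly6a, which encodes Sca-1, did not follow that sum: it stood at 56.3 to 69.4 CPM at Day0, 19.6 to 32.4 CPM at Day2 and 7.29 to 71.9 CPM at Week2. In bulk samples fewer cells of a type and less RNA per cell cannot be told apart.

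**Figure D1:**
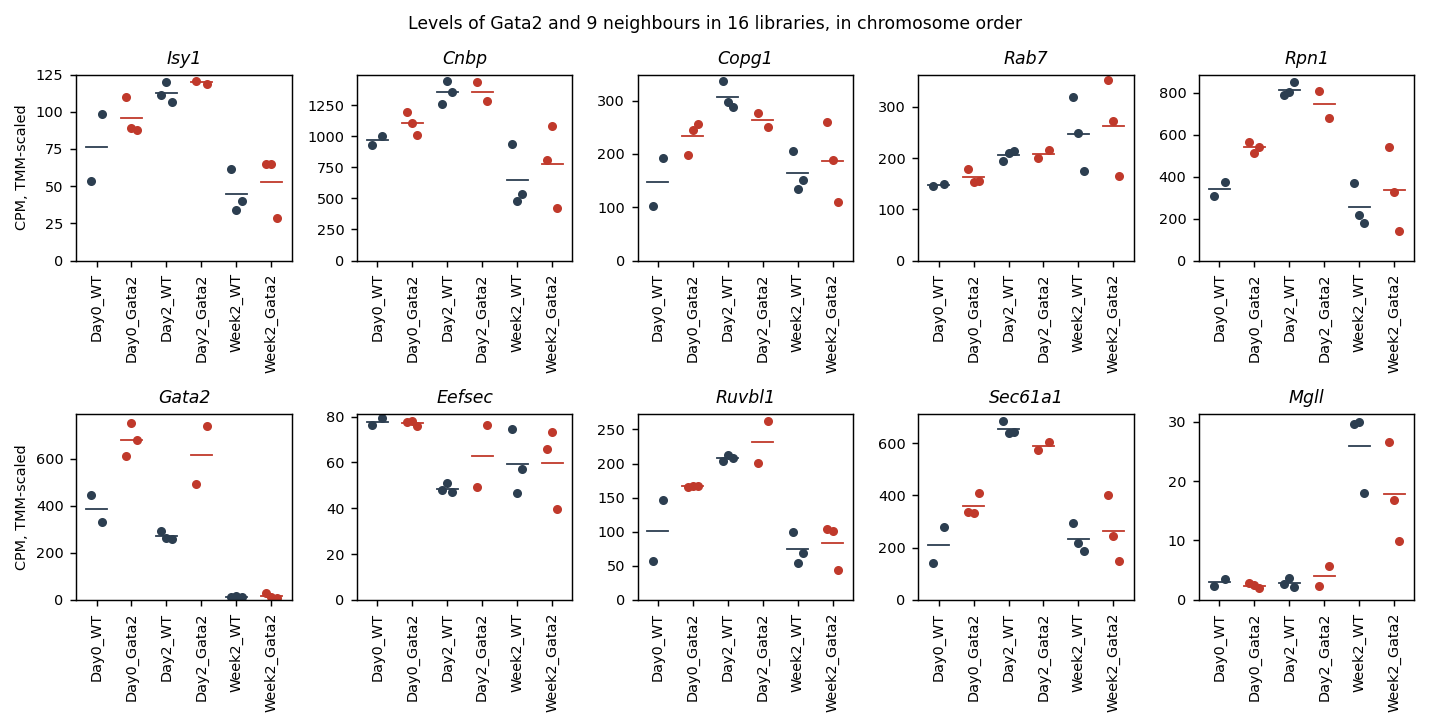
Level of each of the 10 genes (CPM, TMM-scaled, linear axes from 0) in each library, by group, in chromosome order; points are libraries, bars group means, blue WT and red the Gata2 label, and Week2 was scaled apart from the LSK libraries. Gata2 is higher in every Gata2-labelled LSK library than in the WT libraries of its day and lies at 7.86 to 27.4 CPM at Week2; no neighbour is higher under the Gata2 label in every library on both days.

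The libraries labelled Gata2 held more Gata2 RNA than WT at Day0 and Day2. At Day0, Gata2 stood at 446 and 329 CPM in the WT libraries and at 611, 752 and 677 CPM in the libraries labelled Gata2. At Day2 it stood at 291, 262 and 259 CPM in WT and at 491 and 737 CPM under the Gata2 label. The labels did not overlap on either day. Group means were 388 ± 82.2 (SD, n = 2) against 680 ± 71.0 CPM (SD, n = 3) at Day0, and 271 ± 17.6 (SD, n = 3) against 614 ± 174 CPM (SD, n = 2) at Day2. The fitted log2 difference was 0.81 (SE 0.20), or 1.75-fold, at Day0 and 1.18 (SE 0.19), or 2.27-fold, at Day2. The count sums reads over all exons and both alleles, and the labels do not give the deleted part. The count therefore does not check the genotype. The series concerns Gata2 haploinsufficiency, yet Gata2 RNA was higher under the Gata2 label, and the reason was not tested. The direction given is that of the libraries as labelled.

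At Week2 Gata2 was low under both labels. WT libraries held 11.9, 14.5 and 11.1 CPM and those labelled Gata2 27.4, 12.4 and 7.86 CPM, from 1992 to 5887 counts a library. The labels overlapped, with the highest and the lowest library both labelled Gata2, and the log2 difference was 0.35 (SE 0.46). Without Week2_Gata2 replicate 1, the highest, it was -0.30.

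The neighbours were then read in the same libraries, beginning with the pair that flank Gata2. Rpn1, which encodes ribophorin I, a subunit of the oligosaccharyltransferase that puts sugar chains on new proteins, stood at 306 and 372 CPM in Day0_WT and at 565, 512 and 540 CPM in Day0_Gata2. The labels did not overlap, and the log2 difference was 0.67 (SE 0.13, adjusted p = 0.341). Eefsec, the elongation factor that brings selenocysteine to the ribosome and the closest member to Gata2, stood at 76.2 and 79.2 CPM in Day0_WT and at 77.6, 78.2 and 76.1 CPM in Day0_Gata2. These libraries overlapped fully, with a log2 difference of -0.01 (SE 0.18, adjusted p = 0.987). So at Day0 the member on 1 side of Gata2 was apart between the labels and that on the other side was not.

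The other genes of the secretory pathway were also apart between the labels at Day0. Sec61a1, the channel through which new proteins enter the endoplasmic reticulum, stood at 140 and 277 CPM in Day0_WT and at 336, 333 and 408 CPM in Day0_Gata2 (log2 difference 0.78, SE 0.24, adjusted p = 0.341). Copg1, a subunit of the COPI vesicle coat that returns cargo from the Golgi, stood at 102 and 191 CPM against 198, 245 and 255 CPM (log2 difference 0.67, SE 0.24, adjusted p = 0.341). In both genes the lower WT library was replicate 1, and the WT library closer to the other label was replicate 2. Rab7, the GTPase of late endosomes and lysosomes, stood at 146 and 149 CPM against 178, 154 and 156 CPM, a small difference without overlap (log2 0.14, SE 0.12, adjusted p = 0.597).

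Ruvbl1, an ATPase of chromatin remodelling complexes, stood at 57.2 and 146 CPM in Day0_WT and at 166, 167 and 167 CPM in Day0_Gata2 (log2 difference 0.71, SE 0.31, adjusted p = 0.367). The libraries labelled Gata2 were nearly identical and the WT libraries 2.55-fold apart. Isy1, a splicing factor, stood at 53.5 and 98.6 CPM against 110, 89.4 and 87.8 CPM, with overlap (log2 difference 0.33, SE 0.23). Cnbp, a zinc finger protein that binds single-stranded DNA and RNA and the most abundant member, stood at 935 and 1001 CPM against 1194, 1106 and 1013 CPM (log2 difference 0.19, SE 0.12). Mgll, the lipase that splits monoacylglycerols, was near the lower limit in LSK cells, at 2.32 and 3.59 CPM against 2.75, 2.51 and 1.94 CPM, and overlapped (log2 difference -0.30, SE 0.51).

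At Day0, edgeR's quasi-likelihood test with Benjamini-Hochberg adjustment called 0 of 19162 genes (0%) and so 0 of 10 members at an adjusted p under 0.05. At an unadjusted p under 0.05 it gave 2586 genes, 13.5% of those tested, and 4 of 9 neighbours: Rpn1, Sec61a1, Copg1 and Ruvbl1, all higher under the Gata2 label, where 4.33% of genes were higher at that p. The label groups did not overlap, with the Gata2 label higher, for 6 of 9 neighbours (those 4, Rab7 and Cnbp), against 18.3% of all genes. The median log2 difference was 0.33 over the neighbours and 0.02 over all genes. The 95% interval of Gata2, 0.36 to 1.26, overlapped that of every neighbour: 0 of 9 lay below it. DESeq2 called 417 genes (2.18%) and, of the members, Rpn1; limma voom called 0 genes.

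The Day0 differences of the neighbours depended on which Day0_WT library was used. Its levels of Ruvbl1, Sec61a1, Copg1 and Isy1 were 1.84 to 2.55 times below those of Day0_WT replicate 2, while Gata2 was higher in it, with a ratio of replicate 2 to replicate 1 of 0.739. Between those libraries 11.6% to 19.3% of 10860 genes had ratios as high as these 4 genes. Without replicate 1 the log2 difference was 1.05 for Gata2, 0.53 for Rpn1, 0.37 for Sec61a1, 0.28 for Copg1, 0.19 for Ruvbl1, 0.14 for Cnbp, 0.12 for Rab7, and between -0.58 and -0.04 for Isy1, Eefsec and Mgll. Without replicate 2 the same differences were 0.80 for Gata2, 1.01 for Rpn1, 1.56 for Sec61a1, 1.39 for Copg1, 1.73 for Ruvbl1 and 1.03 for Isy1, and 8655 genes (39.9%) and 7 of 10 members were called, the others being Rab7, Eefsec and Mgll. Gata2 was thus 0.80 or more in each setting, whereas Ruvbl1, Sec61a1, Copg1 and Isy1 were large against 1 WT library and small against the other.

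**Figure D2:**
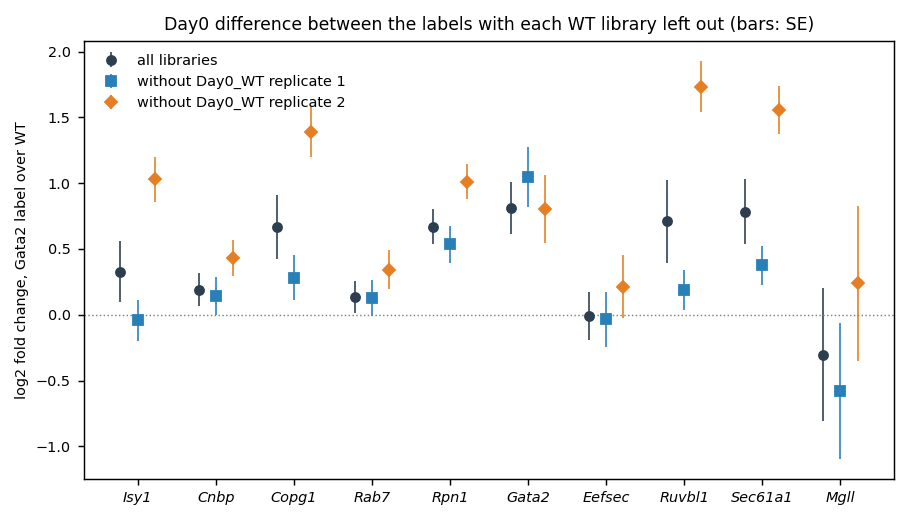
Day0 log2 fold change (Gata2 label over WT, bars SE) of the 10 genes with all libraries, without Day0_WT replicate 1 and without Day0_WT replicate 2. Gata2 stays between 0.80 and 1.05, while Ruvbl1 lies at 0.19 without replicate 1 and at 1.73 without replicate 2.

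At Day2, where the WT libraries were close to each other, the neighbours showed no such shift. Rpn1 stood at 786, 805 and 851 CPM in Day2_WT and at 809 and 681 CPM in Day2_Gata2 (log2 difference -0.13, SE 0.13). Sec61a1 stood at 685, 639 and 641 CPM against 573 and 604 CPM (log2 difference -0.15, SE 0.24), and Copg1 at 337, 297 and 288 CPM against 277 and 250 CPM (log2 difference -0.22, SE 0.24). Sec61a1 and Copg1 thus lay below WT without overlap at Day2, and above WT without overlap at Day0. Rab7 stood at 194, 209 and 213 CPM against 199 and 216 CPM, and Cnbp at 1260, 1447 and 1356 CPM against 1436 and 1285 CPM. Both overlapped, with log2 differences of 0.02 (SE 0.12) and 0.01 (SE 0.12).

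The Day2 libraries labelled Gata2 differed from each other in Gata2, Eefsec, Ruvbl1 and Mgll. Eefsec stood at 48.0, 50.9 and 47.0 CPM in Day2_WT, at 49.2 CPM in Day2_Gata2 replicate 1 and at 76.2 CPM in replicate 2. Ruvbl1 stood at 203, 213 and 208 CPM in WT, at 202 CPM in replicate 1 and at 262 CPM in replicate 2. Mgll stood at 2.70, 3.71 and 2.20 CPM in WT, at 2.25 CPM in replicate 1 and at 5.72 CPM in replicate 2. In all 3 genes replicate 1 lay at or near the WT libraries and replicate 2 above every other Day2 library, so the labels overlapped or nearly so.

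The ratio of replicate 2 to replicate 1 was 1.502 for Gata2, 1.55 for Eefsec, 1.30 for Ruvbl1 and 2.54 for Mgll. Of 10197 genes, 7.66% had a ratio as high as that of Gata2, 6.52% as high as that of Eefsec, 16.1% as high as that of Ruvbl1 and 0.706% as high as that of Mgll. Rpn1, Cnbp, Copg1 and Isy1 had ratios under 1, and Rab7 and Sec61a1 1.08 and 1.05. The fitted Day2 log2 differences were 0.37 (SE 0.18) for Eefsec, 0.16 (SE 0.30) for Ruvbl1, 0.09 (SE 0.23) for Isy1 and 0.47 (SE 0.50) for Mgll. Without Day2_Gata2 replicate 2 they were 0.86 for Gata2, 0.02 for Eefsec, -0.04 for Ruvbl1 and -0.34 for Mgll, and without replicate 1 they were 1.55, 0.75, 0.44 and 1.098. Gata2 was therefore above WT in each library taken alone, whereas Eefsec, Ruvbl1 and Mgll were above every WT library in replicate 2 only.

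EdgeR called 0 of 19162 genes (0%) and 0 of 10 members at Day2. At an unadjusted p under 0.05 it gave 1070 genes (5.58%) and 0 of 9 neighbours. Of the neighbours, 0 were higher without overlap, against 9.96% of all genes, and 2 were lower, against 11.1%. Their median log2 difference was 0.02, that of all genes -0.001. The 95% interval of Gata2 ran from 0.75 to 1.61 and lay wholly above the interval of 6 of 9 neighbours, the exceptions being Eefsec (-0.04 to 0.77), Ruvbl1 (-0.53 to 0.84) and Mgll (-0.65 to 1.60). DESeq2 called 144 genes (0.751%) and limma voom 21 (0.11%), each with Gata2 as the only member. Since Gata2 was chosen with its label difference known, its calls and the place of its interval describe that difference and are no test of it. Without Day0_WT replicate 1, edgeR called 48 genes (0.24%), again with Gata2 as the only member.

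At Week2 the neighbours varied as widely within a label as between labels. Rpn1 ran from 179 to 368 CPM in WT and from 140 to 540 CPM under the Gata2 label, and Mgll, at 29.6, 29.9 and 18.0 CPM in WT and 26.6, 16.9 and 9.99 CPM under the Gata2 label, overlapped too. Log2 differences ran from -0.54 (SE 0.41) for Mgll to 0.40 (SE 0.52) for Rpn1, and 0 of 9 neighbours were free of overlap in either direction, against 1.41% of all genes. EdgeR called 0 of 36485 genes (0%) and gave 87 (0.238%) at an unadjusted p under 0.05, 0 of them members. DESeq2 called 1 gene, and limma voom with quality weights 12016 genes (32.9%), among them Rpn1, Ruvbl1, Isy1 and Cnbp. Without Week2_Gata2 replicate 1, which was highest in Gata2, Rpn1 and Sec61a1, the differences of Rpn1 and Sec61a1 turned to -0.16 and -0.26.

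**Figure D3:**
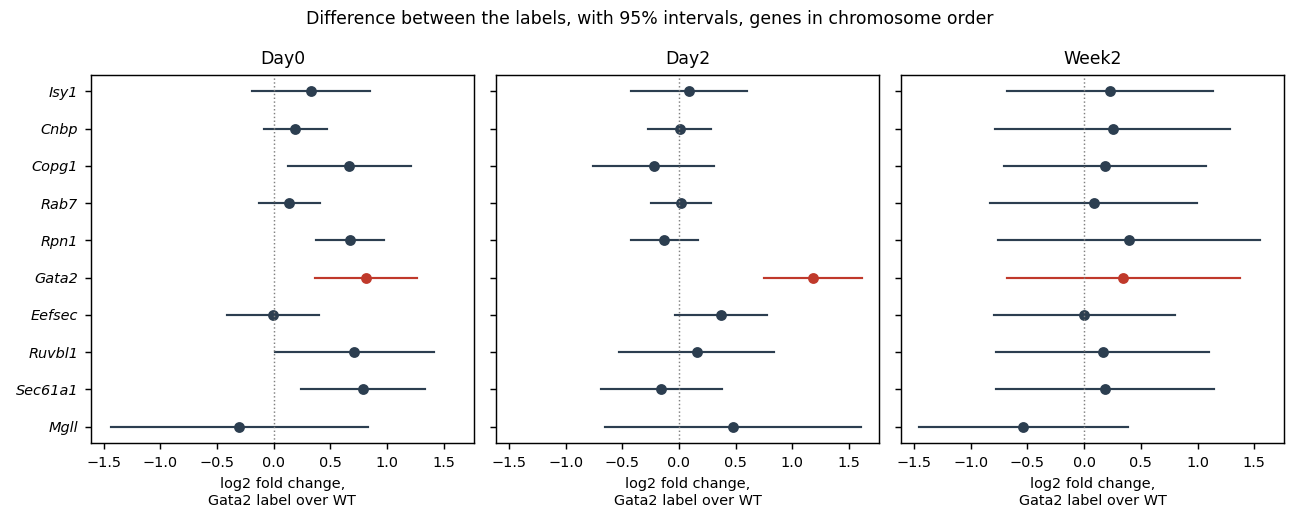
Log2 fold change between the labels (Gata2 label over WT, with 95% intervals) for the 10 genes in chromosome order at Day0, Day2 and Week2; Gata2 is in red. At Day2 the Gata2 interval (0.75 to 1.61) stands to the right of most neighbours, whereas at Day0 0 of 9 neighbour intervals lie clear of it.

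The difference between the label effects at Day2 and Day0 was tested directly. It was 0.37 (SE 0.28) for Gata2, and -0.80 (SE 0.19, adjusted p = 0.465) for Rpn1, -0.94 (SE 0.34, adjusted p = 0.465) for Sec61a1 and -0.89 (SE 0.34, adjusted p = 0.465) for Copg1. These 3 of 9 neighbours had an unadjusted p under 0.05, against 10.4% of all genes, and edgeR called 0 genes (0%) while DESeq2 called 216 (1.13%), Rpn1 among them, and limma voom 0. Without Day0_WT replicate 1 the differences were -0.65 for Rpn1, -0.52 for Sec61a1 and -0.49 for Copg1. Without Day0_WT replicate 2, 6733 genes (31.1%) and 5 members were called.

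All annotated genes within 1 Mb of Gata2 were counted next. The annotation holds 75 genes there, of which 45 are in the table and 27, Gata2 among them, were tested in LSK cells. At Day0, 6 of the 26 others (23.1%) had an unadjusted p under 0.05, all higher under the Gata2 label: Rpn1, Sec61a1, Copg1, Ruvbl1, Mcm2, a subunit of the replicative helicase, and Prokr1, a prokineticin receptor. Mcm2 differed by 0.79 (SE 0.23, adjusted p = 0.341), and Prokr1 was near the lower limit, with means of 0.25 CPM in Day0_WT and 1.43 CPM in Day0_Gata2. Without Day0_WT replicate 1 this came to 3 of 28 genes, Rpn1, Sec61a1 and Mcm2, against 2.57% of all genes. With all libraries, 4 of 16 genes within 0.5 Mb reached that p, all 4 higher. Within 5 Mb it was 21 of 118 (17.8%), 13 of them higher. On chromosome 6 as a whole it was 142 of 978 (14.5%), 47 of them higher. Of all genes 13.5% reached that p, and 4.33% did so while higher under the Gata2 label.

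At Day2 the genes of the 1 Mb window with an unadjusted p under 0.05 were 3 of 26 (11.5%), none of them a member and none within 0.5 Mb. Antxr1 and Podxl2 differed by 3.89 (SE 1.24) and 2.74 (SE 1.09) on the log2 scale, and Tpra1 by 0.31 (SE 0.13), with adjusted p-values from 0.784 to 0.877. Antxr1 and Podxl2 were near the lower limit, with means of 0.026 and 0.047 CPM in Day2_WT and 0.42 and 0.33 CPM in Day2_Gata2. Gata2 had the highest log2 difference of the 17 genes tested within 0.5 Mb, which is a description, since it was chosen with that difference known. At Week2, 0 of 37 others reached that p; Gp9, Mgll and Rpn1 came lowest. No gene of the window was called by edgeR between the labels at any time.

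**Figure D4:**
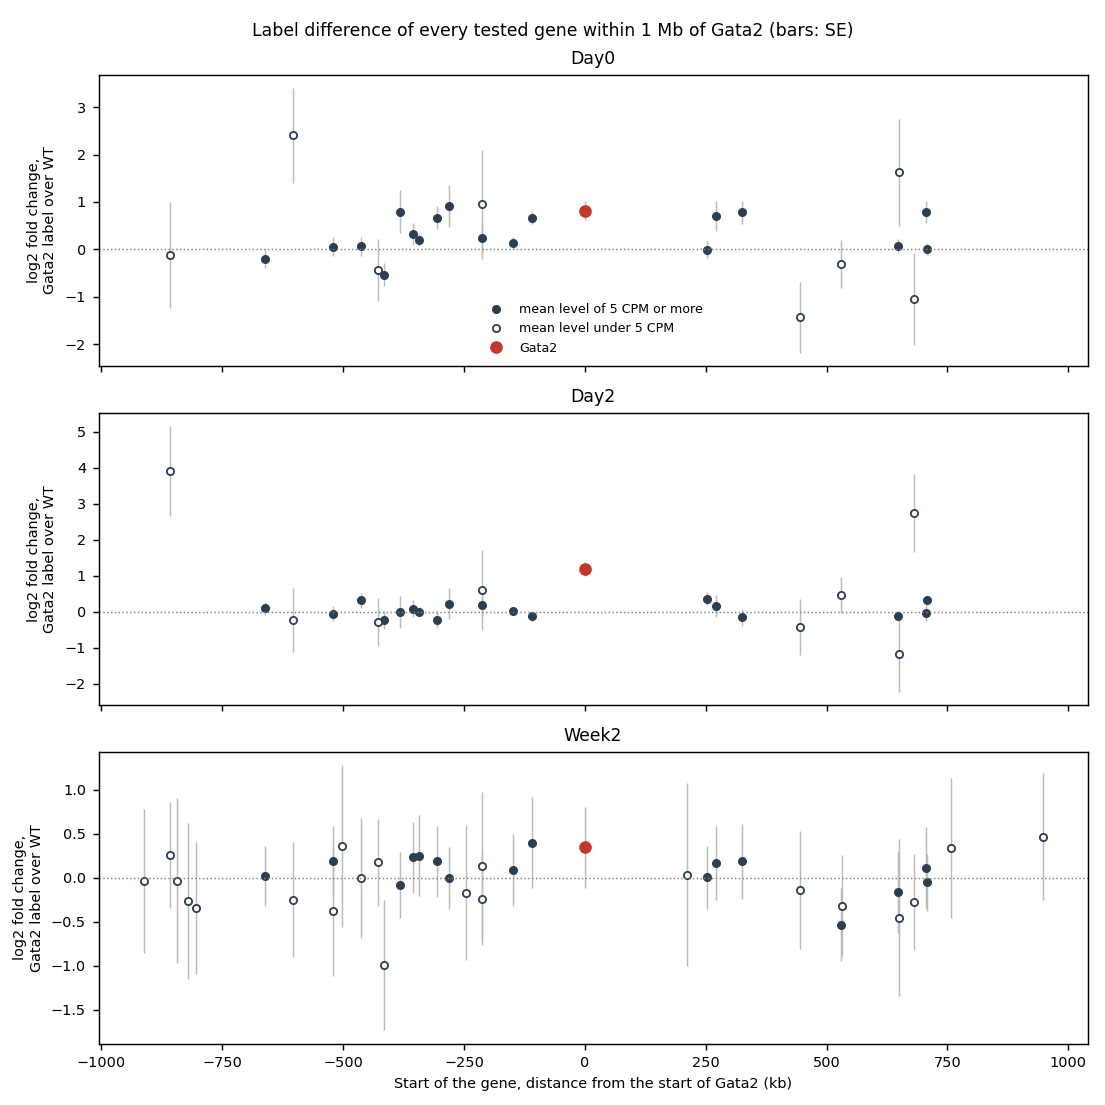
Log2 fold change between the labels (bars SE) for each tested gene within 1 Mb of Gata2, against the distance of its start from that of Gata2 in kb, at Day0, Day2 and Week2; open points are genes under 5 CPM. At Day2, Gata2 (1.18) stands above every gene of 5 CPM or more in the window, and at Day0 (0.81) it lies among others.

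Over time in WT cells most neighbours rose while Gata2 did not. From Day0 to Day2, edgeR called 7 of 9 neighbours, against 29.9% of genes. Rpn1 rose by 1.26 on the log2 scale (SE 0.14, adjusted p = 0.00046), Sec61a1 by 1.65 (SE 0.25, adjusted p = 0.0023), Copg1 by 1.07 (SE 0.24), Ruvbl1 by 1.03 (SE 0.32), Cnbp by 0.48 (SE 0.13) and Rab7 by 0.47 (SE 0.12). These 6 rises compare with 11.9% of genes called higher. Eefsec fell by 0.68 (SE 0.18, adjusted p = 0.022), from 76.2 and 79.2 CPM to between 47.0 and 50.9 CPM, where 17.9% of genes were called lower. Gata2 did not pass, at -0.52 (SE 0.19, adjusted p = 0.0705), nor did Isy1, at 0.56 (SE 0.23), or Mgll, at -0.05 (SE 0.51).

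The WT count depended on single libraries. Without Day0_WT replicate 1, 4 members were called (23% of genes): Rpn1 (1.098), Sec61a1 (1.21), Copg1 (0.65) and Eefsec (-0.74). Without Day2_WT replicate 2 (16.7% of genes) or replicate 3 (17.5%), Rpn1, Sec61a1 and Copg1 were called. Without Day0_WT replicate 2, all members but Mgll were called, 9 in number (57.1% of genes), with Gata2 at -0.71 and Isy1 at 1.08. With each Day2_Gata2 library left out, Gata2 stood at -0.58 and -0.53. Every member but Mgll kept its direction in WT with each library left out in turn, Gata2 at -0.71 to -0.31.

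Under the Gata2 label edgeR called 0 of 9 neighbours from Day0 to Day2, against 9.3% of genes. Rpn1 differed by 0.47 (SE 0.13, adjusted p = 0.0532), Sec61a1 by 0.71 (SE 0.24, adjusted p = 0.0916), Copg1 by 0.18 (SE 0.24), Eefsec by -0.30 (SE 0.18) and Gata2 by -0.15 (SE 0.20). Of the neighbours, 4 had an unadjusted p under 0.05, against 25.4% of genes. Without Day0_WT replicate 1, a library outside this contrast that enters the shared estimate of the spread, 4 neighbours were called (Rpn1, Rab7, Ruvbl1 and Sec61a1; 24.3% of genes), and without Day0_WT replicate 2, 2 were called (Rpn1 and Sec61a1; 21.2%). DESeq2 (18.1% of genes) and limma voom (21.3%) called 3 members each. Whether the time course differs between the labels is the difference tested above, for which edgeR called 0 members with all libraries and 5 without Day0_WT replicate 2, and DESeq2 called Rpn1. The label comparison at Day0, that at Day2 and both time courses share libraries, so their values are not independent of each other.

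Genes of the same protein complexes that lie elsewhere in the genome were read beside the members. For Rpn1, Sec61a1, Copg1 and Ruvbl1, 16 partner genes on other chromosomes were taken (Rpn2, Ddost, Dad1, Stt3a, Stt3b, Sec61b, Sec61g, Sec62, Sec63, Copa, Copb1, Copb2, Arcn1, Cope, Copz1 and Ruvbl2), after the members' values were seen, and are given without a test. From Day0 to Day2, 15 of 16 were higher in WT, with a median log2 difference of 1.06, and 16 of 16 under the Gata2 label, with a median of 0.52, where 46.5% and 46.2% of all genes were higher. Between the labels at Day0, 14 of 16 were higher under the Gata2 label, against 51.4% of all genes, with a median of 0.32, or 0.13 without Day0_WT replicate 1. At Day2, 2 of 16 were higher, against 47.6% of all genes, with a median of -0.14.

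The complexes differed in this at Day0. All 5 oligosaccharyltransferase partners of Rpn1 were higher, with a median of 0.46 (0.34 without Day0_WT replicate 1), from 0.03 for Dad1 to 0.72 for Rpn2, the latter 0.34 without that library. At Day2 Dad1 differed by 0.19 and Rpn2 by -0.15, beside -0.13 for Rpn1. All 6 COPI partners of Copg1 were higher, with a median of 0.38 (0.19 without that library). Of the 4 translocon partners of Sec61a1 only 2 were higher, with a median of 0.11 beside 0.78 for Sec61a1 itself, and without Day0_WT replicate 1 it was 1 of 4, with a median of -0.04. Ruvbl2 differed by 0.51, or 0.11 without that library.

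Against Day0 LSK cells, the Week2 samples had far less Gata2. Since cell type and time change together here, they cannot be told apart. Gata2 fell by 4.86 on the log2 scale in WT (SE 0.35), 29.0-fold lower, and under the Gata2 label it fell by 5.48 (SE 0.35), 44.8-fold lower. Mgll went the other way and rose by 3.19 (SE 0.49) and 2.84 (SE 0.41). The median over all genes was 0.95 in WT and 1.22 under the Gata2 label. It was taken over 31164 genes tested, where the LSK fit tested 19162. This set thus holds genes that did not pass the filter in LSK libraries alone, and the Week2 libraries were deeper. Rab7, at 0.80 (SE 0.21) and 0.64 (SE 0.19), was called higher but lay below these medians, and Isy1 fell by 0.72 (SE 0.26) and 0.92 (SE 0.24).

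In WT these were 3 of 9 neighbours called, against 33.5% of genes. Under the Gata2 label Rpn1 (-0.77, SE 0.28), Ruvbl1 (-1.08, SE 0.28) and Cnbp (-0.59, SE 0.20) were called lower as well, so that 6 of 9 neighbours were called, against 43% of genes. The intervals of all 9 neighbours lay above that of Gata2 in both labels. The number of members called changed as single libraries were left out, and so did the number of all genes called. The ranges of both are given together in the last paragraph. The fewest members were called without either Day2_Gata2 library in WT and without Day0_Gata2 replicate 1 under the Gata2 label. The share of all genes called in those fits is not given here. Gata2 and Mgll kept their direction throughout, and Sec61a1, Copg1 and Ruvbl1 changed sign in WT in some settings.

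**Figure D5:**
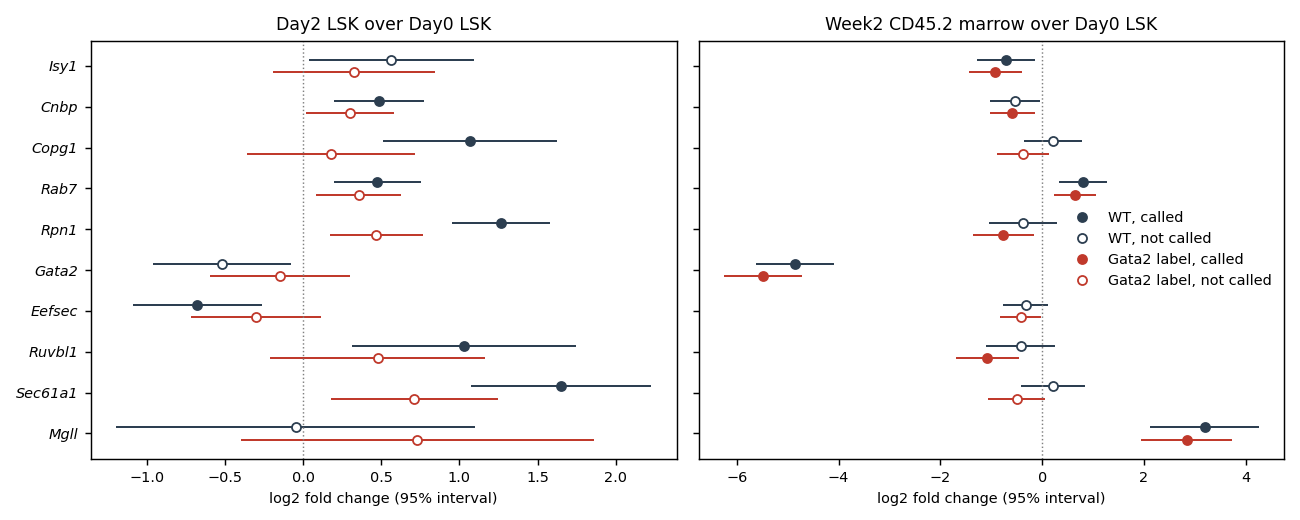
Log2 fold change with 95% intervals of the 10 genes from Day0 to Day2 in LSK cells (left) and from Day0 LSK cells to Week2 CD45.2 marrow (right), WT in blue and the Gata2 label in red; filled points are called by edgeR at an adjusted p under 0.05. On the left 7 WT points and 0 points of the Gata2 label are filled, and on the right Gata2 (-4.86 and -5.48) and Mgll (3.19 and 2.84) stand apart from the rest.

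Levels were also compared between the genes per length, as RPKM, the CPM divided by the exon length in kilobases. Cnbp was first in every group, at 319 ± 15.5 RPKM (SD, n = 2) in Day0_WT. Gata2 was the third in Day0_WT, at 71.8 ± 15.2 RPKM (SD, n = 2), with a range that overlapped that of Rpn1 above it. It was the second in Day0_Gata2 at 126 ± 13.1 RPKM (SD, n = 3), overlapping Rpn1 below it at 119 RPKM. In Day2_WT it was the sixth, at 50.2 ± 3.27 RPKM (SD, n = 3), clear of Rab7 above and Copg1 below, and in Day2_Gata2 the fourth, at 114 ± 32.3 RPKM (SD, n = 2), overlapping Ruvbl1 above it. Mgll was last in each LSK group, at under 1 RPKM. At Week2 Gata2 was last under both labels, at 2.31 ± 0.325 RPKM in WT (SD, n = 3), below and clear of Mgll, and at 2.94 ± 1.89 RPKM under the Gata2 label (SD, n = 3), where it overlapped Mgll.

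The pattern of Gata2 over the 10 LSK libraries was set beside that of 10116 genes with a mean of 5 CPM or more, by Pearson's r of log2(CPM + 1), as a description; the libraries differ in day, label and depth, and the median r was -0.07. The genes most like it were Abca2 (r = 0.90), H2afy (0.89), Spns3 (0.87), Gcn1l1 (0.86) and Gtpbp1 (0.85). Eefsec had an r of 0.70, rank 116 of 10116, and 0.62 to 0.85 as single libraries were left out. The other 7 neighbours above the level minimum had r from -0.32 for Cnbp to -0.03 for Ruvbl1, and Mgll was under the minimum. Eefsec was thus the neighbour whose level across LSK libraries ran closest to that of Gata2, although its Day0 label difference was -0.01.

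The other GATA factors and markers of other blood cells were read for the same groups. Gata1, the erythroid and megakaryocytic GATA factor, averaged 53.9 ± 13.3 CPM (SD, n = 2) in Day0_WT, 35.6 ± 3.01 CPM (SD, n = 3) in Day0_Gata2, 49.6 ± 10.03 CPM (SD, n = 3) in Day2_WT and 50.9 ± 1.90 CPM (SD, n = 2) in Day2_Gata2. Of the 5 GATA genes tested in LSK cells, Gata2 among them, edgeR called 0 between the labels. At an unadjusted p under 0.05 it gave 3 at Day0, Gata2 (higher), Gata1 and Gata6 (both lower), against 13.5% of all genes. At Day2 it gave Gata2 and Gata5 (both higher), against 5.58%. Gata6 stood at 3.29 CPM in Day0_WT replicate 1 and 0 in replicate 2. Gata5 stood at 0.53 CPM in Day2_Gata2 replicate 2 and at 0 in every other Day2 library. DESeq2 and limma voom each called Gata2 at Day2, a difference known beforehand. The 8 mast cell and basophil genes, cells that also express Gata2, summed to 341 to 608 CPM in Day0_WT and 414 to 665 CPM in Day0_Gata2, which overlap. At Day2 they summed to 143 to 199 CPM in WT and 216 to 222 CPM under the Gata2 label, without overlap, beside a Gata2 difference of 1.18; of 7 tested, 3 were higher and 4 lower, with a median log2 difference of -0.02, and 1 of the 8 was at 0 in every Day2_Gata2 library. The 8 megakaryocyte and erythroid genes summed to 1638 to 2015 CPM in Day2_WT and 1459 to 1470 CPM in Day2_Gata2.

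The median label difference of the mature neutrophil genes was positive at Day0 and negative at Day2. Of the neighbours, Rpn1, Sec61a1 and Copg1 had these signs and the others did not. The 6 genes summed to 75.9 and 168 CPM in Day0_WT and 153 to 269 CPM in Day0_Gata2, and 6 of 6 were higher, with a median log2 difference of 0.80; without Day0_WT replicate 1 it was 4 of 6, with a median of 0.44. At Day2 they summed to 874 to 1729 CPM in WT and 612 to 947 CPM under the Gata2 label, and 5 of 6 were lower, with a median of -0.77. The 7 stem cell markers had medians of the same signs, 0.06 at Day0 (4 higher, 3 lower) and -0.18 at Day2 (2 higher, 5 lower). The 6 endothelium and stroma genes summed to 83.3 CPM in Day0_WT replicate 1, 27.7 CPM in replicate 2 and 22.2 to 27.5 CPM in Day0_Gata2. The 8 lineage markers that an LSK gate leaves out summed to 108 and 58.7 CPM in the same WT libraries and to 63.2 to 93.1 CPM in Day0_Gata2.

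In LSK cells edgeR called 0 genes of the mast cell, megakaryocyte and erythroid, neutrophil, endothelium and lineage lists between the labels. At an unadjusted p under 0.05 it gave Gata1, Mmp8 and Emcn at Day0 and S100a8, Ms4a1 and Cxcl12 at Day2. Ms4a1 and Cxcl12 reached at most 0.276 and 0.158 CPM in the Day2 libraries. DESeq2 called Mmp8 and Emcn at Day0 and limma voom none. Of the 7 stem cell markers edgeR called 0, with Cd34 and Hlf at that unadjusted p at Day0 and Procr at Day2, and DESeq2 called Hlf at Day0. The part of these cells in the differences of Gata2 and its neighbours was not tested.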

How the data were processed

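Read counts per Ensembl gene ID were deposited by the authors as 1 table of whole numbers for the 16 libraries (45706 IDs, 0 lines naming no gene). The submitters' processing notes name Trimmomatic 0.38 (read trimming), STAR 2.5.2b (alignment) and the mm10 build; how reads were assigned to genes, with which annotation and whether by strand, is not given in the sources used here. Per the labels' protocols, 2 kits were in use, TruSeq Stranded mRNA and SMARTer Ultra Low, without a statement of which sample had which. GENCODE M21 gave symbols to 45143 IDs and the positions.

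Counts were tested with edgeR 4.0.16 (R 4.3.3), using TMM scaling, filterByExpr, the robust quasi-likelihood test and Benjamini-Hochberg adjustment over all genes tested, with 0.05 as the threshold of a call. A first fit held the 4 LSK groups (10 libraries), another the 6 Week2 libraries, and a further fit all 16 libraries for Week2 against Day0. CPM and RPKM were computed from the counts, RPKM with the summed exon length of each gene. Alternatives were RLE scaling, no low count filter, DESeq2 1.42.0, limma 3.58.1 voom with quality weights, the compared groups alone (all 16 libraries for Week2), the library's sex (male above 10 CPM of Ddx3y), the replicate number as a block, a pseudocount of 0.5 in place of 1 in the correlations, and each library left out in turn; where this left 1 library in a group, it was assumed to vary like the other groups. Counts in the 1 Mb window without Day0_WT replicate 1 were added after seeing the data. The procedure was tested on simulated counts.

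The members and lists were chosen with earlier results of these data known. The genes named are the 10 members, the 3 protein-coding genes of lowest p within 1 Mb of Gata2 in each label comparison, the 5 genes most correlated with Gata2 in LSK cells, and the complex partners, which were chosen after the members' values were seen, as was Prokr1. A further gene of the stem cell marker list is not reported here and was left out of its sum.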

Additional observations from a re-analysis of the deposited data

How the results depend on the processing

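Depth limited Mgll most, at 48 to 290 counts in LSK libraries. The deviations of same-numbered libraries had an r of -0.08 to 0.05 at Day0 and Day2, and of 0.72, -0.77 and 0.50 at Week2. With 2 or 3 libraries in a group, these values cannot tell whether the numbers pair the samples. With the replicate block the called genes were 1 at Day2 and 12 at Week2 between the labels, 2747 over time in WT, with 4 members, and 745 over time under the Gata2 label. Without the low count filter 1 gene was called at Day0, 22 at Day2, with 1 member (Gata2), and 2 for the difference between the label effects. DESeq2 called 417 genes and 1 member (Rpn1) at Day0, 144 and 1 (Gata2) at Day2, 1 gene at Week2, 3471 and 3 over time under the Gata2 label, and 216 and 1 (Rpn1) for the difference. Limma voom called 21 genes and 1 member (Gata2) at Day2, and 12016 and 4 at Week2. Over time it called 1334 and 2 in WT, and 4088 and 3 under the Gata2 label. From Day0 to Week2 it called 9373 genes and 2 members in WT, and 20533 genes under the Gata2 label. With sex as a covariate 3 genes were called at Day2, 2 at Week2, and 1637 and 1 member over time under the Gata2 label. RLE scaling called 1747 genes and 1 member in that last comparison. With the compared groups alone 11 genes were called at Day2, and 1199 and 2 members over time in WT. Under the Gata2 label 5676 and 3 were called over time. From Day0 to Week2 in WT 10608 genes and 2 members were called. The cause was not tested. Each other count of called genes or members under these settings was within 1.5 times the one reported.

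With each library left out in turn, genes called ran from 0 to 8655 at Day0 (members 0 to 7), 0 to 48 at Day2 (0 to 1), 0 to 4 at Week2 (0 to 0), 3191 to 12386 over time in WT (3 to 9), 499 to 4863 over time under the Gata2 label (0 to 4), 0 to 6733 for the difference (0 to 5), 4483 to 13483 from Day0 to Week2 in WT (2 to 5) and 5420 to 16022 under the Gata2 label (3 to 8). The direction turned for some members. At Day0 the log2 differences ran from -0.043 to 1.03 for Isy1, -0.041 to 0.21 for Eefsec and -0.58 to 0.24 for Mgll. At Day2 Mgll ran from -0.34 to 1.098, Ruvbl1 from -0.037 to 0.44, Rab7 from -0.034 to 0.18 and Cnbp from -0.020 to 0.091. At Week2 Gata2 ran from -0.30 to 0.68, Rpn1 from -0.16 to 0.92 and Sec61a1 from -0.26 to 0.54. Also at Week2, Cnbp ran from -0.077 to 0.71, Copg1 from -0.15 to 0.51 and Eefsec from -0.17 to 0.30. Rab7 ran from -0.19 to 0.46 and Ruvbl1 from -0.069 to 0.55 there. Over time in WT Mgll ran from -0.35 to 0.32. Over time under the Gata2 label Mgll ran from -0.12 to 1.17 and Gata2 from -0.49 to 0.035. For the difference between the label effects Isy1 ran from -0.90 to 0.14, Rab7 from -0.28 to 0.0062 and Mgll from -0.047 to 1.32. From Day0 to Week2 in WT Sec61a1 ran from -0.22 to 0.83, Copg1 from -0.19 to 0.79 and Ruvbl1 from -0.96 to 0.46. The 1 Mb count at Day0 fell from 6 to 3 without Day0_WT replicate 1. Gata2 kept its direction at Day0 (0.71 to 1.05) and Day2 (0.86 to 1.55) in each of these settings.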
